A study of Homo sapiens with 4 samples.

Results

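Sodium, calcium and TRP channel genes were examined in HepG2 and Huh7 cells before and after sonodynamic therapy (SDT). Protein-coding genes were selected by symbol: SCN followed by a digit, SCNN1, CACNA, CACNB, CACNG, TRPA, TRPC, TRPM or TRPV followed by a digit, and PIEZO1 and PIEZO2. These were 69 of the 19951 protein-coding genes of GENCODE release 29. Of them, 67 encode channel subunits, whereas TRPC4AP and TRPC5OS match the symbol pattern without being channel subunits, and both were in neither list. A gene was counted as listed when its identifier stood under any GO term of the deposited table for that cell line, so the listing state was itself taken from the measured calls and is given as a description with no test.

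HepG2 and Huh7 are established human cell lines, labelled as hepatocellular carcinoma. Group A comprised HepG2 cells and group C comprised Huh7 cells, both with no treatment in the labels. Groups B (HepG2) and D (Huh7) received lonidamine (LND) carried by targeted nanobubbles, with SDT. SDT uses ultrasound to activate a sensitizer inside the cell, here hematoporphyrin monomethyl ether (HMME), and LND is an inhibitor of tumour energy metabolism. The bubbles carried both, and the cells were exposed to low-frequency ultrasound. Each group was 1 library of total RNA depleted of ribosomal RNA, so no difference had a replicate check, and treatment and library cannot be told apart. The tables held neither levels nor directions. Here, "listed" means called as differentially expressed at the authors' threshold and annotated to a GO term. Nothing here says whether a gene was higher or lower, or how strongly it was expressed. The cell types could not be checked against their markers for the same reason, and the depth of the libraries is unknown from these tables.

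Most sodium channels of the SCN family are gated by voltage, open on depolarization and carry the upstroke of the action potential in nerve and muscle. Each is a large alpha subunit that forms the pore, with smaller beta subunits beside it. Voltage-gated calcium channels are built around a CACNA1 pore with CACNA2D and CACNB subunits, and in muscle a CACNG subunit. Epithelial sodium channels (SCNN1) are not gated by voltage and take up sodium across the lining of kidney, lung and colon. TRP channels are cation channels opened by lipids, heat, cold, pungent compounds or calcium itself, and PIEZO channels open when the membrane is stretched. Liver cells are not electrically excitable in the way that nerve and muscle are, and calcium entry in them is known chiefly through store-operated and TRP channels.

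Of the 69 genes, 33 (47.8%) were listed for HepG2 (B vs. A) and 26 (37.7%) for Huh7 (D vs. C). Among all protein-coding genes the shares were 23.9% and 21.9%. Both lists held 19 of the 69 genes (27.5%), against 11.4% of all protein-coding genes. A further 14 genes were listed in HepG2 alone and 7 in Huh7 alone, and 29 (42%) were in neither list, against 65.7% of all protein-coding genes. The 19 shared genes were 57.6% of the HepG2 members and 73.1% of the Huh7 members, and for all protein-coding genes these shares were 47.7% and 52.2%. These percentages describe the lists and were not tested.

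The 19 genes in both lists came from most of the families. The sodium channel genes were SCN4A, SCN9A and SCN3B. The calcium channel genes were CACNA1B, CACNA1C, CACNA1E, CACNA1G, CACNA2D1, CACNA2D2, CACNB2 and CACNB4. The TRP channel genes included TRPC4, TRPC6, TRPM4, TRPM5, TRPM6 and TRPV3. PIEZO2 was also in both lists. Whether a shared gene moved in the same direction in the cell lines is not held by the tables.

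**Figure D1:**
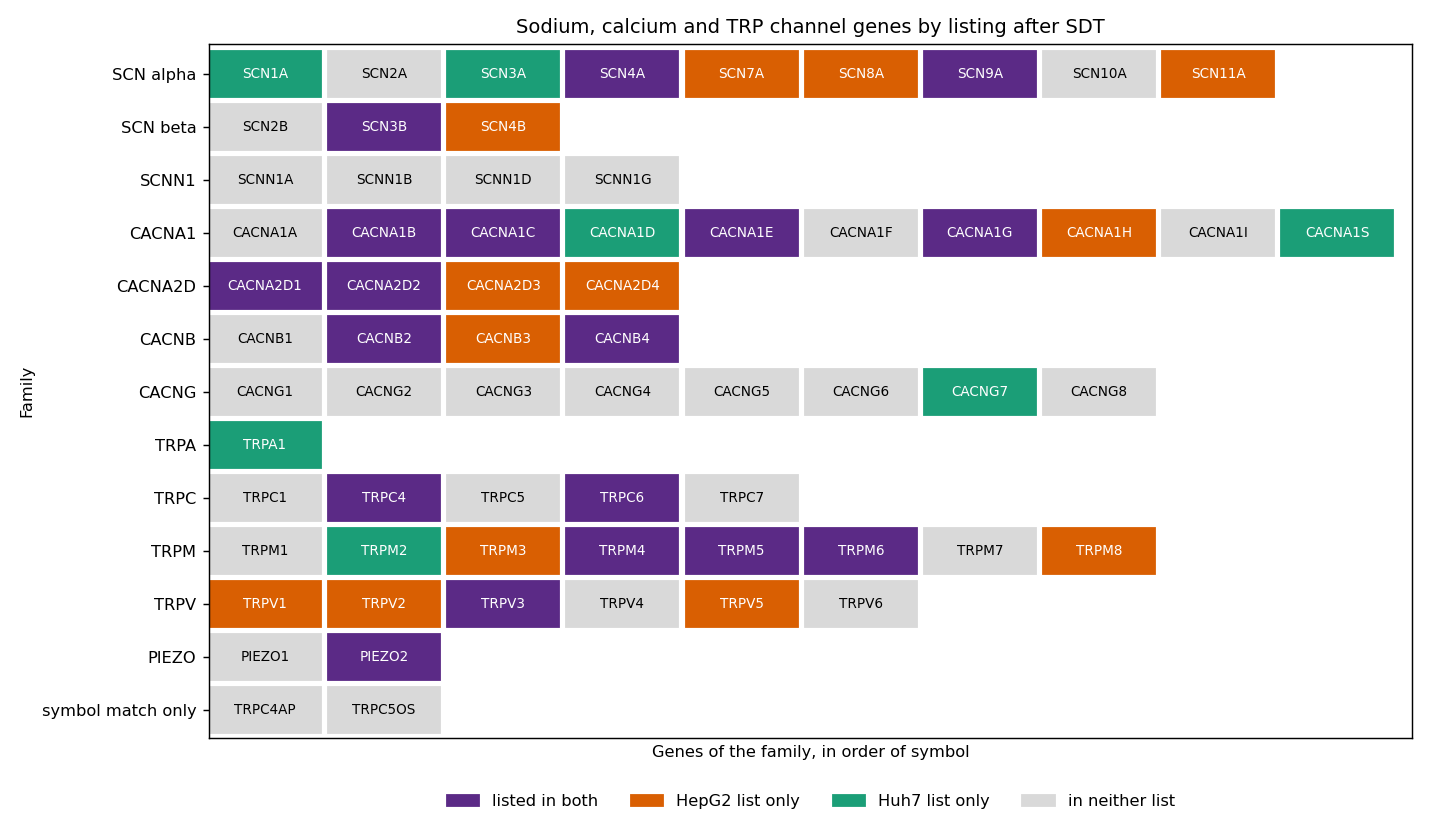
Each box is 1 gene, placed in the row of its family, for 66 of the 69 genes; the colour gives the listing state (both lists, HepG2 list only, Huh7 list only, neither). The SCNN1 row holds no listed gene, the CACNG row holds 1 (CACNG7), and each of the 4 CACNA2D genes was listed in at least 1 cell line.

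Among the 10 SCN alpha subunits, 6 were listed in HepG2, 4 in Huh7 and 2 in both. The 2 in both were 20%, against 11.4% of all protein-coding genes. SCN4A, the skeletal muscle channel, and SCN9A, a channel of pain-sensing neurons, were the shared ones. SCN7A, SCN8A (a brain channel) and SCN11A (a sensory neuron channel) were listed in HepG2 alone. SCN1A and SCN3A, both brain channels, were listed in Huh7 alone. SCN2A, a brain channel, and SCN10A, a sensory neuron channel, were in neither list. Thus 8 of the 10 alpha subunits were listed in at least 1 cell line. The 2 shared genes were 33.3% of the HepG2 alpha subunits and 50% of the Huh7 ones. For all protein-coding genes these shares were 47.7% and 52.2%.

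SCN1A and 4 more of these alpha subunits lie on chromosome 2, in a pair (SCN3A and SCN2A) and a run of 3 (SCN1A, SCN9A and SCN7A) with other genes between them. In order they are SCN3A, SCN2A, SCN1A, SCN9A and SCN7A, and their listing states ran Huh7 only, neither, Huh7 only, both and HepG2 only. All 4 states thus occurred among these 5 genes, and within each run the neighbours differed in state. The sequences before the transcription start of SCN2A, SCN1A, SCN7A and SCN9A are shown because these genes cover the 4 states. They are the 120 bases upstream of the RefSeq start in build GRCh38.p14, in 5′ to 3′ order on the strand of the gene, with CpG dinucleotides in capitals. SCN2A, in neither list, is chr2:165239294-165239413 (+ strand); SCN1A, listed in Huh7, is chr2:166128021-166128140 (- strand). SCN7A, listed in HepG2, is chr2:166486972-166487091 (- strand), and SCN9A, listed in both, is chr2:166375945-166376064 (- strand).
SCN2A: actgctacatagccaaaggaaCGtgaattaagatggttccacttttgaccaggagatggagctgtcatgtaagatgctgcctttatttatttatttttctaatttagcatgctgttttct
SCN1A: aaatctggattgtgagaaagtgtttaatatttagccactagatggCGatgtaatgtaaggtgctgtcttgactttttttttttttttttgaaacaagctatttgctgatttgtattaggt
SCN7A: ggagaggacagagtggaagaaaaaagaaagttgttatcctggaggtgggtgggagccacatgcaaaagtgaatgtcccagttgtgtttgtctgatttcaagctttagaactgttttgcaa
SCN9A: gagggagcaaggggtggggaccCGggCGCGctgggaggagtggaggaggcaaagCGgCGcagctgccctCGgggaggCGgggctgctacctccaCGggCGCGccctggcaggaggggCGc

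These 120 bases held 1 CpG in SCN2A, 1 in SCN1A and 0 in SCN7A, against 11 in SCN9A, and their GC content was 36.7%, 30.8%, 43.3% and 77.5%. SCN9A is the only one of these 4 that was listed in both cell lines. A further pair was picked because its members had the same number of CpG and opposite states. As all these genes were picked on their states, they cannot show whether CpG number and listing go together. That was not tested. CACNA1C, listed in both cell lines, is chr12:2052867-2052986 (+ strand), and TRPM7, in neither list, is chr15:50686798-50686917 (- strand). Each held 27 CpG in the same window, with a GC content of 88.3% and 81.7%. The RefSeq start of CACNA1C lies 311 bases from the nearest GENCODE start, and that of SCN2A 12 bases from it. For the other 4 genes the starts coincide.
CACNA1C: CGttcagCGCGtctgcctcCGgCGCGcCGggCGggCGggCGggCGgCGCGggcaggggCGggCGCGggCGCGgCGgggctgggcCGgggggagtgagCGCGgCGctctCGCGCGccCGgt
TRPM7: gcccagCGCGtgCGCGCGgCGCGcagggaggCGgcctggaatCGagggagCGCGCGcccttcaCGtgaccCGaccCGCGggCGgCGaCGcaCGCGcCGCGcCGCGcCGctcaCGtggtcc

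RefSeq promoters of 300 bases, 250 before and 50 after the start, were matched by symbol for 45 of the 69 genes. The median number of CpG was 22 in the 14 promoters of genes in both lists (range 5 to 54) and 18 in the 17 promoters of genes in neither list (0 to 48), so the ranges overlapped over most of their length. Promoters with 10 or more CpG were 71.4% of those of genes in both lists, 70% of the 10 listed in HepG2 alone, 25% of the 4 listed in Huh7 alone and 52.9% of those in neither list, against 73.7% of all promoters. The median of 14905 promoters of protein-coding genes was also 22. A TATA box, searched as TATAAA on either strand, was found in 0 of the 14 promoters of genes in both lists and in 3 of the 45 member promoters (6.67%), against 9.37% of all promoters. The 3 were those of SCN10A, TRPM8 and PIEZO1. A GC box, searched as GGGCGG on either strand, was found in 60% of the member promoters and 59.4% of all promoters. A CCAAT box, searched as CCAAT on either strand, was found in 28.9% and 36.4%. Which of these starts the cells used was not measured.

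Among the 4 beta subunits, SCN3B was listed in both cell lines and SCN4B in HepG2 alone. SCN2B, which is expressed in brain, was in neither list. SCN4B and SCN2B are neighbours on chromosome 11. None of the 4 epithelial sodium channel genes SCNN1A, SCNN1B, SCNN1D and SCNN1G was listed in either cell line. The tables therefore held 14 SCN genes with 8 listed in HepG2, 5 in Huh7 and 3 in both, beside 0 of 4 epithelial genes. Of all protein-coding genes, 23.9% were listed in HepG2, 21.9% in Huh7 and 65.7% in neither. With shares of that size, 0 of 4 genes cannot show a difference between the families, which was not tested.

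Among the 10 CACNA1 pore subunits, 5 were listed in HepG2 and 6 in Huh7, and 4 were in both lists. The shared ones were CACNA1B and CACNA1E, which serve transmitter release and firing in neurons, CACNA1C, the L-type pore of heart and smooth muscle, and CACNA1G, a T-type pore. CACNA1H, another T-type pore, was listed in HepG2 alone. CACNA1D and CACNA1S, both L-type pores, were listed in Huh7 alone. CACNA1A (the P/Q-type pore of synapses), CACNA1F (the L-type pore of photoreceptors) and CACNA1I (a T-type pore of brain) were in neither list. L-type pores were thus represented by CACNA1C in HepG2 and by CACNA1C, CACNA1D and CACNA1S in Huh7, and T-type pores by CACNA1G and CACNA1H in HepG2 and by CACNA1G in Huh7.

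The subunits that traffic and tune these pores were listed in HepG2 for 7 of 8 genes and in Huh7 for 4. CACNA2D1 and CACNA2D2, which are also the binding sites of gabapentin, were listed in both cell lines, and CACNA2D3 and CACNA2D4 in HepG2 alone. CACNB2 and CACNB4 were listed in both, CACNB3 in HepG2 alone, and CACNB1, the skeletal muscle beta subunit, in neither. All 4 of the Huh7 genes were thus also in the HepG2 list. The 8 CACNG genes, which include the skeletal muscle gamma subunit CACNG1 and several partners of AMPA receptors, had 0 listed in HepG2 and 1, CACNG7, in Huh7, so that CACNG1, CACNG2, CACNG3, CACNG4, CACNG5, CACNG6 and CACNG8 were in neither list. CACNG5, CACNG4 and CACNG1 are neighbours on chromosome 17, and CACNG7, CACNG8 and CACNG6 on chromosome 19. Of the 26 calcium channel genes, 12 (46.2%) were listed in HepG2 and 11 (42.3%) in Huh7, against 23.9% and 21.9% of all protein-coding genes. Without the CACNG genes, left out once their states were known, these were 12 of 18 (66.7%) and 10 of 18 (55.6%). As that subset was picked on the same calls, its shares are a description only.

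**Figure D2:**
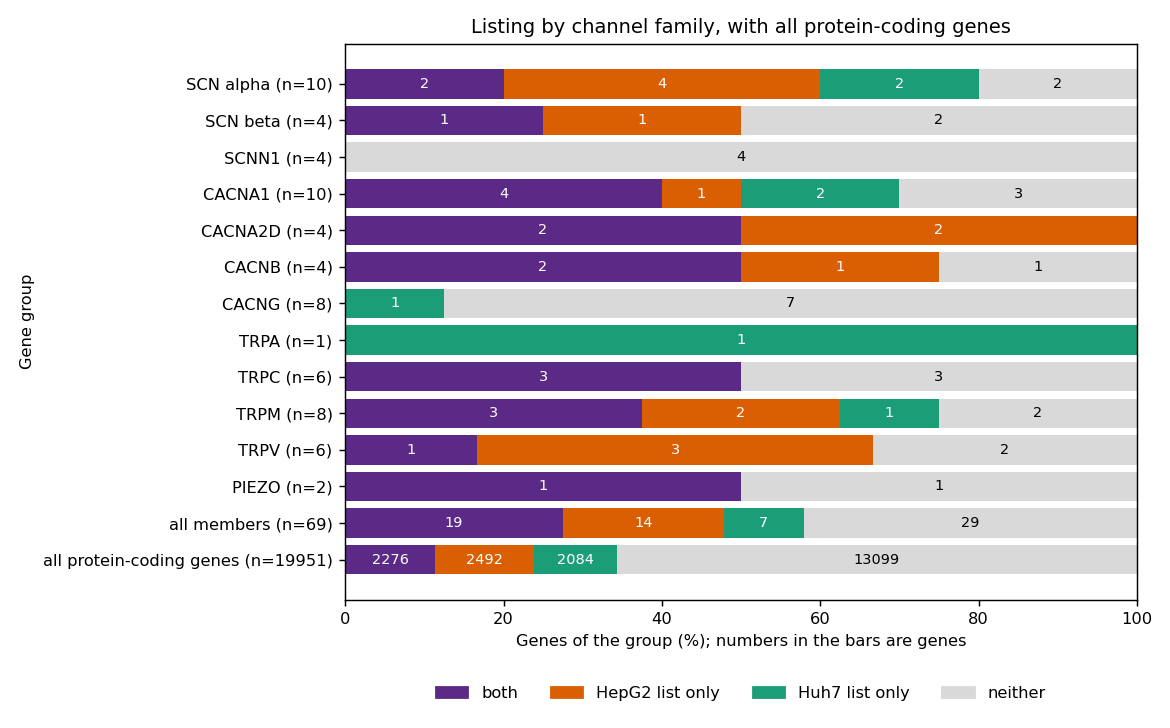
Bars give the percentage of each family in each listing state, with gene numbers inside the bars, and the 2 lowest bars give all 69 members and all 19951 protein-coding genes. Genes in neither list made up 42% of the members and 65.7% of all protein-coding genes, and the SCNN1 and CACNG bars are the ones above 65.7%.

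Among the 21 TRP channel genes, 12 (57.1%) were listed in HepG2, 9 (42.9%) in Huh7 and 7 in both. In the TRPC family, TRPC4 and TRPC6 were listed in both cell lines, and TRPC1, TRPC5 and TRPC7 in neither. TRPC6 and TRPC7 are close relatives opened by diacylglycerol, and TRPC4 is the close relative of TRPC5.

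Of the 8 TRPM genes, 5 were listed in HepG2 and 4 in Huh7. TRPM4 and TRPM5, which are opened by intracellular calcium and pass monovalent ions, and TRPM6, a magnesium-permeable channel joined to a kinase, were listed in both cell lines. TRPM3 and the cold receptor TRPM8 were listed in HepG2 alone. TRPM2, a channel opened by ADP-ribose and sensitive to oxidative stress, was listed in Huh7 alone. TRPM1, a channel of retinal bipolar cells, and TRPM7, a widely expressed channel joined to a kinase, were in neither list, so TRPM6 and its closest relative TRPM7 differed in state.

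Of the 6 TRPV genes, 4 (66.7%) were listed in HepG2 and 1 (16.7%) in Huh7, against 23.9% and 21.9% of all protein-coding genes. Over all 69 members, too, more genes were listed in HepG2 alone (14) than in Huh7 alone (7). TRPV3, a warmth-sensitive channel of skin, was listed in both. TRPV1, the capsaicin receptor, TRPV2 and TRPV5, an epithelial calcium channel, were listed in HepG2 alone. TRPV4, a channel opened by cell swelling, and TRPV6, the other epithelial calcium channel, were in neither list. TRPV6 and TRPV5 are neighbours on chromosome 7 and differed in state, as did TRPV3 and TRPV1 on chromosome 17. TRPA1, the receptor of mustard oil and of many oxidants, was listed in Huh7 alone. TRPV1 and TRPA1, which are often found together in sensory neurons, were thus in different lists. The difference between the cell lines was not tested.

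PIEZO2, the touch channel of sensory neurons, was listed in both cell lines. PIEZO1, the stretch channel of blood vessels and red cells and the more widely expressed of the pair, was in neither list. GO holds 18 background genes under mechanically-gated ion channel activity. Of these, 2 (11.1%) were listed in HepG2 and 4 (22.2%) in Huh7, against 21.6% and 19.7% of the whole GO background. PIEZO2 was the only member of the channel families among them in each.

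Channel terms of GO showed how much of the listing under them came from these genes. Voltage-gated sodium channel complex held 8 listed genes of 14 background genes in HepG2 (57.1%) and 5 of 14 in Huh7 (35.7%). Every one of these was an SCN gene. They were the same 8 and 5 SCN genes counted above, so this term repeats that count. Sodium channel complex added TRPM4 to each set, giving 9 and 6 of 18 genes. Voltage-gated calcium channel complex held 16 of 44 genes in HepG2 and 17 in Huh7, of which 12 and 11 were CACN genes. For calcium channel activity, 44 of 117 genes (37.6%) were listed in HepG2 and 38 (32.5%) in Huh7, and 23 and 19 of these were members. In the whole GO background the listed shares were 21.6% and 19.7%.

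Wider transport terms rested on other genes for the most part. Calcium ion transport held 124 of 418 genes in HepG2 and 116 in Huh7, with members making up 19.4% and 17.2% of the listed genes. Sodium ion transport held 73 and 83 of 217 genes, with members making up 12.3% and 8.43%. Ion channel complex listed 102 and 104 of its 268 genes, among them 24 and 20 members. Detection of temperature stimulus held 11 of 19 genes in HepG2, with TRPM3, TRPM8 and TRPV1 among them, and 6 of 19 in Huh7 with no member.

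**Figure D3:**
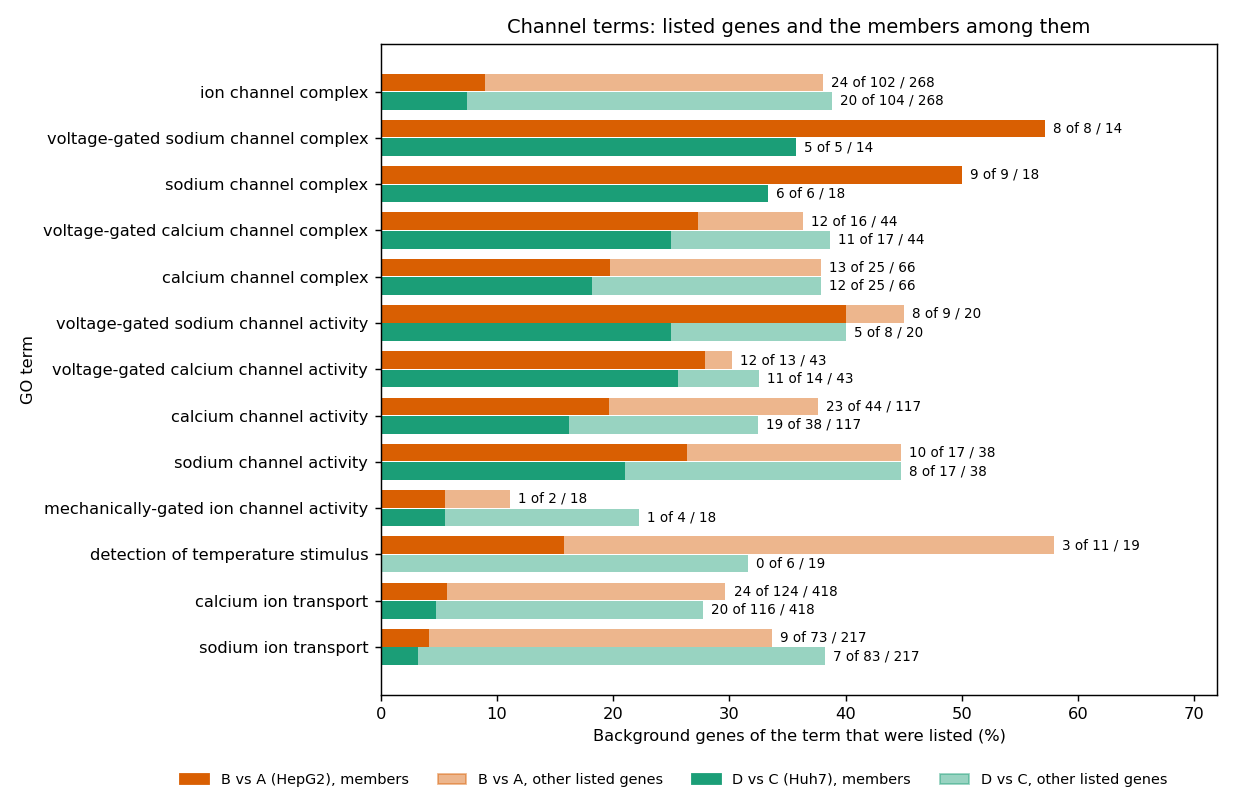
Bars give the percentage of the background genes of each GO term that were listed in group B vs. A (orange) and group D vs. C (green), with the dark part for members of the channel families; labels read members of listed genes / background genes. The bars of voltage-gated sodium channel complex are dark over their whole length (8 of 8 and 5 of 5), whereas sodium ion transport holds 9 members of 73 listed genes in HepG2 and 7 of 83 in Huh7.

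In the KEGG tables, 25 members appeared for HepG2 cells and 19 for Huh7 cells, and 13 for both, of 69 in all. Of all protein-coding genes, 8.46%, 8.19% and 4.31% stood in these tables, which hold only listed genes with a pathway annotation. These shares also count genes with no pathway annotation, which could not appear there. The members stood in 32 pathways in HepG2 and 31 in Huh7. CACNA1C was under 24 pathways in each cell line, and CACNA1D was under 24 in Huh7. There were 9 listed genes that stood under no pathway, among them SCN3A, SCN4A, SCN8A, SCN9A, SCN11A, SCN3B, TRPC4 and PIEZO2. The KEGG tables rest on the same calls as the GO tables and are not independent of them.

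MAPK signaling pathway, which in KEGG includes the calcium channel subunits, held 81 of 257 genes in HepG2, of which 12 were CACN genes. In Huh7 cells it held 77 genes, of which 11 were CACN genes. Adrenergic signaling in cardiomyocytes held 11 members among 47 listed genes in HepG2, among them 8 CACN genes with SCN7A and SCN4B, and 8 members among 46 in Huh7, all CACN genes. Cardiac muscle contraction held 8 members in each cell line, among 27 and 22 listed genes. CACNA1C, CACNA2D1, CACNA2D2, CACNB2 and CACNB4 were in both sets of 8. Arrhythmogenic right ventricular cardiomyopathy (ARVC) held 8 members among 29 and 28 listed genes, and Dilated cardiomyopathy held 8 among 35 and 36. Oxytocin signaling pathway held 8 members among 45 listed genes in HepG2 and 9 among 49 in Huh7. Largely the same CACN genes stood behind each of these pathway counts, as all 12 of them in HepG2 and all 11 in Huh7 were already under the MAPK pathway.

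Calcium signaling pathway held 59 of 180 genes in HepG2 and 60 in Huh7, with 5 and 6 CACNA1 genes. Type II diabetes mellitus held 4 and 5 CACNA1 genes among 17 and 15 listed genes. Insulin secretion held CACNA1C and TRPM4 in HepG2, and in Huh7 also CACNA1D and CACNA1S. cGMP-PKG signaling pathway held CACNA1C and TRPC6 in both, with CACNA1D and CACNA1S added in Huh7. Cholinergic synapse held 2 members in HepG2 and 4 in Huh7, as did Dopaminergic synapse, where SCN1A was one of the 4. Taste transduction held CACNA1B and TRPM5 in both cell lines; TRPM5 carries the taste receptor signal. Inflammatory mediator regulation of TRP channels held TRPM8, TRPV1, TRPV2 and TRPV3 in HepG2 and TRPA1 and TRPV3 in Huh7. Aldosterone-regulated sodium reabsorption held 14 of 39 genes in HepG2 and 11 in Huh7, but no member.

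Channel genes are long, and the listed ones had longer transcripts at the median. The median of the longest transcript was 5839 bases for the 69 genes and 3153 bases for all protein-coding genes. Within the members, it was 7563 bases for genes in both lists (range 3675 to 16171) and 4324 bases for genes in neither (1266 to 11676), and the ranges overlapped. Of the 39 members in the longest of 5 equal classes of all protein-coding genes (5476 bases or more), 22 (56.4%) were listed in HepG2 and 19 (48.7%) in Huh7. In class 4 these were 7 of 11 (63.6%) and 5 of 11 (45.5%), and in class 3 they were 4 of 14 (28.6%) and 2 of 14 (14.3%). Of the 5 members in the 2 shortest classes, 0 were listed. These were CACNG1, CACNG2, CACNG5, CACNG6 and SCNN1B. Class 3 held CACNG3, CACNG4, CACNG7, SCNN1A, SCNN1D and SCNN1G among its 14. Length and family therefore cannot be told apart in these shorter classes. Over all protein-coding genes, the listed share in class 1, with the shortest transcripts, was 18.5% in HepG2 and 17.4% in Huh7. In classes 2 to 5 it was 24.3% to 26.5% in HepG2 and 22.8% to 23.4% in Huh7. When all protein-coding genes were weighted to the members' mix of length classes, 25.7% were listed in HepG2, 22.7% in Huh7 and 12% in both, against 47.8%, 37.7% and 27.5% of the members. The part of length in the listing was not tested. Among the CACNG genes, CACNG1, CACNG2, CACNG5 and CACNG6 have a longest transcript of 1266, 2384, 1311 and 1853 bases. CACNG7, the listed one, has 2688 bases. CACNG3, CACNG4 and CACNG8, in neither list, have 3088, 3380 and 8747 bases.

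**Figure D4:**
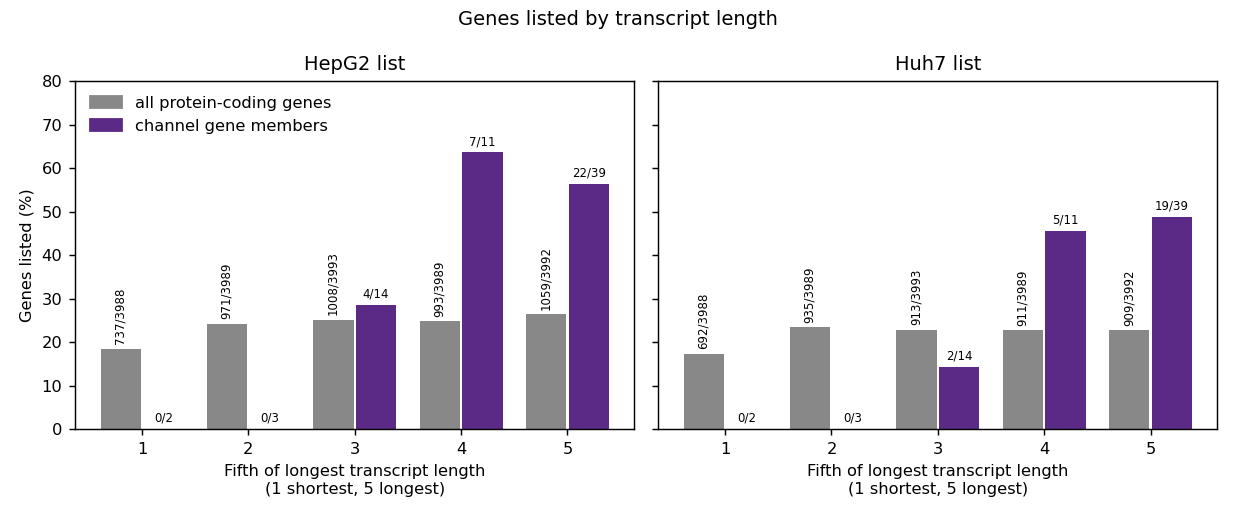
Bars give the percentage of genes listed in HepG2 (left) and Huh7 (right) cells for each of 5 equal classes of longest transcript length, for all protein-coding genes (grey) and the 69 members (purple); labels read listed genes / genes. In class 5, the longest, 22 of 39 members were listed in HepG2, whereas 1059 of 3992 protein-coding genes were.

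Stretches of 75 bases were compared between all GENCODE transcripts, and 53 of the 69 genes shared none with another gene. TRPV1 had the lowest share of its own, 75.1%, and the remainder also stood in transcripts of its neighbours SHPK and AC027796.3, which were in neither list. CACNB4 followed with 94.2%, TRPV3 with 96.3% (shared with SPATA22, itself listed in HepG2), TRPA1 with 96.7% and SCN3A with 96.8%. SCN1A, SCN2A, SCN3A and SCN9A shared stretches with each other, as paralogs on chromosome 2. Exons of 29 members overlapped a gene on the opposite strand, among them 9 of the 19 genes in both lists and 11 of the 29 in neither. The library kit marks strand, but whether the authors counted by strand is not given in the sources used here.

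Other genes of sodium and calcium handling, including calcium effectors and channel partners, were counted in the same way, in 9 lists with 80 genes. Of these, 30 (37.5%) were listed in HepG2, 27 (33.8%) in Huh7 and 17 (21.2%) in both, against 23.9%, 21.9% and 11.4% of all protein-coding genes. The sodium leak and acid-sensing list, which holds relatives of the SCN and SCNN1 channels, had 7 of 8 genes in HepG2 and 5 of 8 in Huh7. NALCN, the pore of the sodium leak channel, its partner UNC80, and ASIC1, ASIC3 and ASIC4 were listed in both. UNC79 and ASIC2 were listed in HepG2 alone, and ASIC5 in neither. For the sodium pump, 5 of 8 genes were listed in HepG2 and 4 in Huh7. ATP1B1, ATP1B2 and ATP1B4, which are beta subunits of the pump family, were listed in both.

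Genes of store release and store-operated entry numbered 4 of 11 in the HepG2 list and 2 in the Huh7 list. The ryanodine receptors RYR2 and RYR3 were listed in both, and ORAI3 and ITPR1 in HepG2. ORAI1 and STIM1, the classic pair of store-operated entry, were in neither list. Calcium pumps and exchangers had 4 of 13 genes in each cell line, with ATP2A1, ATP2B2 and SLC8A2 in both. The mitochondrial uniporter had 0 of 6 genes in HepG2 and 1, MICU3, in Huh7. Of the calcium effectors, 3 of 16 were listed in HepG2 and 6 in Huh7, with CAMK2B and NFATC1 in both. Channel partners, which bind SCN alpha subunits or anchor them, had 4 of 6 genes in HepG2 (FGF11, FGF12, ANK2 and ANK3) and 2 in Huh7 (FGF12 and FGF14). Other TRP and endolysosomal channels had MCOLN2 and PKD2L2 in HepG2 and PKD2L1 in Huh7. The sperm calcium channel had CATSPER2 in HepG2 and CATSPER3 and CATSPER4 in Huh7.

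**Figure D5:**
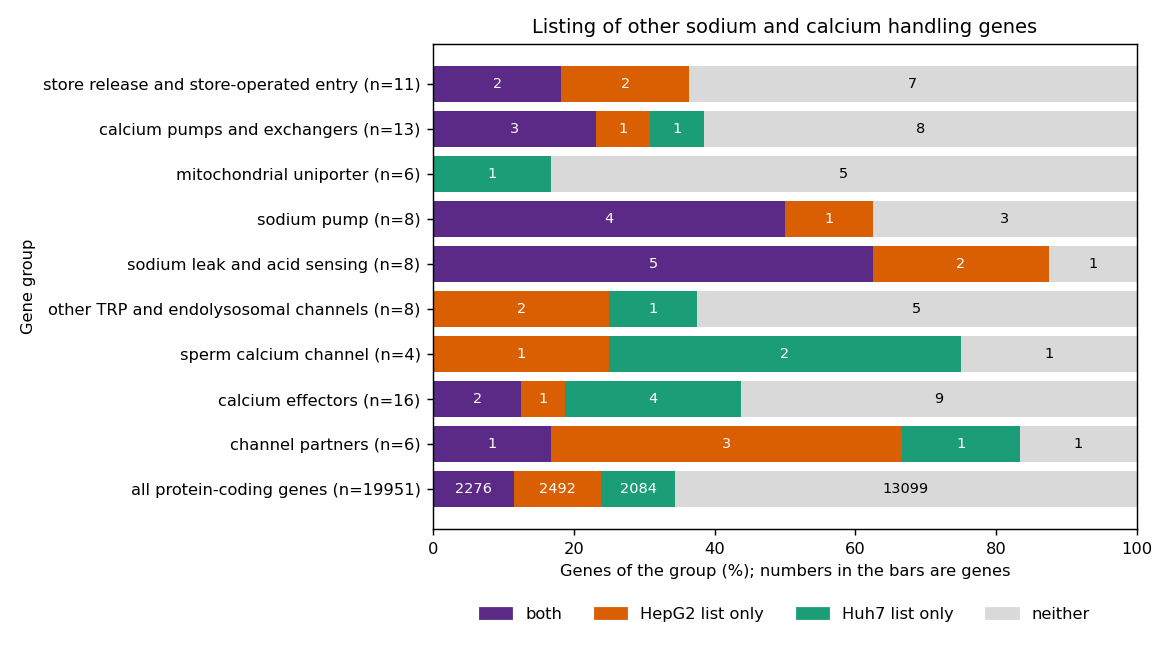
Bars give the percentage of each companion list in each listing state, with gene numbers inside the bars and all protein-coding genes as the lowest bar. The sodium leak and acid-sensing list has 1 gene of 8 in neither list and the mitochondrial uniporter 5 of 6, against 65.7% of all protein-coding genes.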

How the data were processed

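The 4 libraries, 1 for each group, were made from total RNA after removal of ribosomal RNA. Per the study's methods, FPKM values were computed by the authors, and an mRNA was called on its adjusted p-value, with Cuffdiff (v2.1.1) named in the methods and another tool in the results. The submitters' processing notes also list HISAT2, Bowtie2 2.2.8 and StringTie 1.3.1. The genome build and annotation are not given in the sources used here. The authors deposited, per comparison, a GO table (GOseq) and a KEGG table (KOBAS), whose counts are numbers of genes, not reads. These tables also hold the authors' enrichment p-values, which were not used. No interval or detection limit is given, since the tables hold no reads, and no other per-sample columns were present (0).

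The list of each comparison was the union of identifiers over all GO terms, 4783 and 4369 genes, equal to the list totals in the tables. Of these, 4768 and 4360 matched protein-coding genes of GENCODE release 29 by identifier and formed the background shares. Symbols, order along chromosomes and transcript lengths came from GENCODE, and promoters from RefSeq (GRCh38.p14) by symbol. For 32 of the 45 member promoters, a stretch just past the start stood in a GENCODE transcript of the gene. Counting was done in Python 3.11.15 and checked on tables with known lists. No test was run, since the tables hold no levels and each group held 1 library.

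The members and companion lists were chosen with earlier results of these data known. Every member was named, apart from a few whose results are not reported here. GO terms and pathways were named from a set list, to which the 5 pathways with the most members in each table were added. The sequences shown were chosen after the listing states had been seen. Alternatives were other sources of the list, subsets of the members and other backgrounds.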

Additional observations from a re-analysis of the deposited data

How the results depend on the processing

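The counts of members listed kept within 1.5 times of their values under each alternative run, but several of these could not change them. In the KEGG tables in place of the GO tables they were 25 in HepG2, 19 in Huh7 and 13 in both, and for pore-forming subunits alone 24, 20 and 14. The pore-forming subunits were 47 of the 69 genes, so their counts could not rise. Their listed shares were 51.1%, 42.6% and 29.8%, against 47.8%, 37.7% and 27.5% of all members. Genes under at least 10 GO terms, or in either kind of table, gave the main counts of 33, 26 and 19, as did leaving out TRPC4AP. These settings could not change the counts. TRPC4AP was in neither list, and each listed member stood under 60 or more GO terms. No member in a KEGG table was missing from the GO list. Leaving out TRPC4AP and TRPC5OS, or the CACNG and SCNN1 families, was an alternative added once the values were known. The first gave the main counts, as neither gene was listed. The second gave 33, 25 and 19, as the left-out families held 1 listed gene, CACNG7. The background shares moved from 23.9%, 21.9% and 11.4%. With the authors' GO background total they were 21.6%, 19.7% and 10.3% for HepG2 cells, Huh7 cells and both. For genes within the members' transcript range they were 24.8%, 22.6% and 11.9%. Weighted to the members' classes of transcript length they were 25.7%, 22.7% and 12%, and of gene span 26.1%, 23.7% and 12.3%, settings chosen after the lengths had been seen. Each alternative share was below the share of the members. No paired analysis was possible because the tables hold no levels for any library. No replicate could be left out, since each group held 1 library. Without levels or reads, a gene in neither list may be unchanged, too weakly expressed to be called or without a GO annotation. The tables do not tell which. They also do not tell whether a listed gene was expressed above a trace in either group.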

Other observations

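Sodium leak and acid-sensing genes had the highest listed share among the companion lists in HepG2, 87.5%, and in Huh7, 62.5%, from 8 genes. The sperm calcium channel and the other TRP and endolysosomal channels were the companion lists that had listed genes in each cell line but 0 in both. These lists hold 4 and 8 genes, and 11.4% of all protein-coding genes were in both lists.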
